A study of Mus musculus with 8 samples.

Results

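The Lgr5+ epithelial cells of mouse colon assembloids numbered 709, with 442 in assembloid replicate 1 and 267 in assembloid replicate 2, out of 18460 assembloid cells that met every other criterion and 115502 barcodes in the 8 libraries of the series. They were selected on raw UMI counts (unique molecular identifiers, one per captured RNA molecule) in the assembloid epithelial libraries. A cell had at least 500 genes, at least 2000 UMIs and at most 10% of UMIs from mitochondrial genes, and held at least 2 UMIs of Epcam, at least 1 of Lgr5, at most 1 of Krt20 and at most 1 of Col1a1 and Col1a2 together. Cycling cells, with at least 2 UMIs of both Mki67 and Top2a, were left out. Cells that met all of this but had no Lgr5 UMI are called Lgr5 0 cells. Cells with fewer Mki67 or Top2a UMIs stayed in. Only 111 of the 442 and 118 of the 267 Lgr5+ cells held no UMI of either gene. Since Lgr5 and the other genes of the rule chose the cells, their levels are given as a description, and every contrast between Lgr5+ and Lgr5 0 cells compares cells chosen by a read value.

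All libraries came from male C57BL/6 mice and were made with 10x 3′ chemistry, which counts RNA from its 3′ end, after sorting of live cells. Assembloids were organoids set into Matrigel together with cultured primary stromal cells of the colon and grown without surrogate Wnt, the GSK3 inhibitor CHIR-99021, R-spondin 1 and noggin. Organoids were the epithelium alone, in full medium with those 4 factors, and the tissue samples were colon crypts taken straight from the animal. Each group had 2 libraries labelled as replicates, so the p-values below measure the spread between these libraries only. Assembloids were dissociated with Liberase and then TrypLE, and organoids with TrypLE alone. Tissue crypts were freed with EDTA and dithiothreitol and then treated with TrypLE. Culture, niche and dissociation thus cannot be told apart in comparisons between groups.

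Lgr5 encodes a receptor for R-spondins, which raise the response of a cell to Wnt ligands by sparing Wnt receptors from degradation. In the colon, Lgr5 marks the columnar stem cells at the crypt base, where Wnt signalling is high and BMP signalling is low, and these cells give rise to absorptive colonocytes and to secretory goblet, enteroendocrine and tuft cells. Many genes of the crypt base, among them Axin2, Rnf43 and Znrf3, are themselves induced by Wnt signalling and feed back on it.

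Library depth ranged from 99133978 to 191255856 UMIs over the 6 epithelial libraries, and the Lgr5+ cells of assembloids held 4024136 and 5340870 UMIs in all. The cells of replicate 2 were deeper, with a median of 19385 UMIs against 6162 in replicate 1. The same cell barcode occurred in another library for 4 members of each replicate, and no barcode was a member in both. Epcam, the epithelial surface marker, which the rule bounds, stood at a median of 11 and 32 UMIs in the members. Krt8, Krt18 and Krt19, keratins of simple epithelia that the rule does not use, were read at 656 to 2500 CPM (the UMIs of a gene over those of all genes in the summed cells, scaled to 1e+06), so the epithelial label held by these keratins.

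Lgr5 was read at low numbers in assembloid cells. In replicate 1, 442 of 14740 otherwise alike cells (3.0%, 95% exact binomial interval 2.73 to 3.29) had an Lgr5 UMI, and in replicate 2, 267 of 3720 (7.18%, 6.37 to 8.05). Intervals cover counting error only. The share rose with depth in both assembloid libraries, from 1.82% of cells with 2000 to under 4000 UMIs to 9.49% of those with 16000 to under 32000 in replicate 1, and from 2.85% to 8.33% over the same range in replicate 2. In tissue the same share lay between 5.38% and 14.2% at every depth, without a steady rise.

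**Figure D1:**
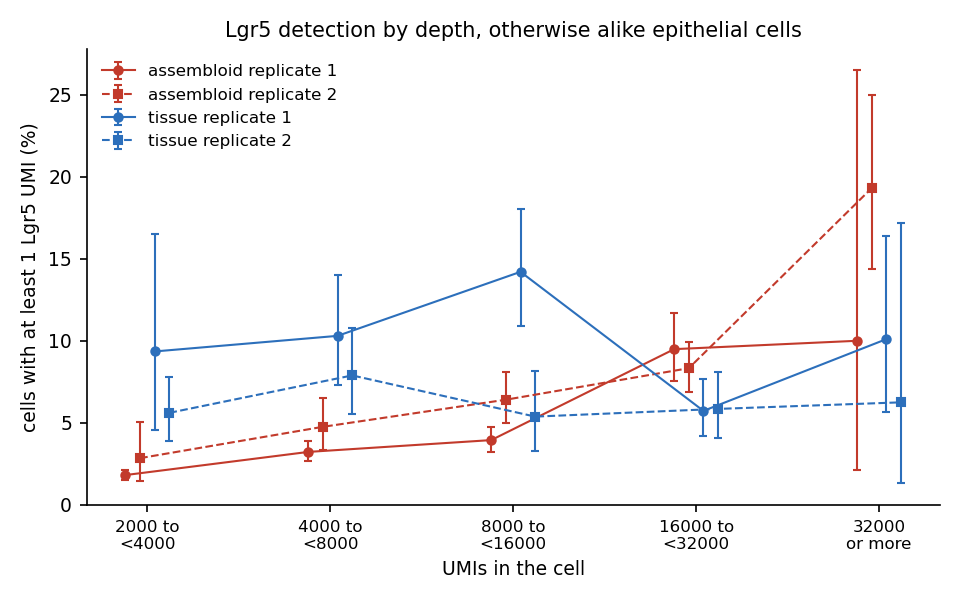
Share of otherwise alike epithelial cells with at least 1 Lgr5 UMI (y axis, %) against the UMIs of the cell (x axis, 5 ranges), in assembloids (red) and tissue (blue), for replicate 1 (circles, solid lines) and replicate 2 (squares, dashed lines). Bars are 95% exact binomial intervals; the assembloid shares climb from 1.82% and 2.85% in the shallowest cells to 10.0% and 19.3% in the deepest, the first of which rests on 30 cells.

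To compare libraries at 1 depth, each cell was thinned at random to 2000 UMIs. The share then was 1.11% (0.95 to 1.3) and 1.69% (1.3 to 2.16) in assembloids, with a mean of 1.4% ± 0.411 (SD, n = 2 libraries), 4.06% and 2.9% in tissue and 19.8% and 35.9% in organoids. With 2 libraries against 2, an exact permutation test could not pass the threshold, and none was run. Assembloid cells with at least 5 UMIs of Krt20, a marker of differentiated colonocytes that should lack Lgr5, stood at 0.491% (4 of 814, 0.134 to 1.25) and 0.398% (3 of 754, 0.0821 to 1.16) after thinning. In replicate 1 this interval overlapped that of the otherwise alike cells, and in replicate 2 it did not. Before thinning these colonocytes stood at 2.7% and 2.92%, with median depths of 11902 and 19816 UMIs against 3909 and 13422 in the otherwise alike cells. The unthinned share of replicate 1 was thus close to that of its colonocytes, but at unlike depths. Among fibroblast-like barcodes, which had collagen UMIs and no Epcam, 0 of 134 held an Lgr5 UMI in replicate 1, which allows a share of cells with an Lgr5 UMI of up to 2.24% by a floor of 3 cells (2.72% by the exact interval), and 1 of 91 did in replicate 2. Among macrophage-like barcodes, which had UMIs of immune genes and no Epcam, 1 of 52 and 1 of 44 held an Lgr5 UMI. After thinning 0 of 52 and 1 of 44 did.

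The level of Lgr5 over all otherwise alike cells was 6.18 and 7.71 CPM in assembloids, against 3.25 and 2.11 CPM in their Krt20-high colonocytes. It was 19.4 and 12.9 CPM in tissue and 135 and 270 CPM in organoids. The assembloid and tissue values did not overlap, and the organoid values lay above both. Summed over many cells, fewer positive cells and less Lgr5 RNA in each cannot be told apart from these levels alone. Members carried 556 of the 1194 Lgr5 UMIs of replicate 1 (46.6%) and 432 of 1196 in replicate 2 (36.1%), while the cycling cells that the rule leaves out carried 379 and 411. In the cycling cells the thinned share with Lgr5 was 2.02% and 3.39%, above that of the otherwise alike cells in each library.

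Most members rested on a single Lgr5 UMI, the lowest count the rule admits. In replicate 1, 383 of 442 cells had 1 UMI, 36 had 2 and 23 had 3 or more, and in replicate 2 the numbers were 189, 39 and 39 of 267. Cells with 3 or more Lgr5 UMIs thus made up 5.2% and 14.6% of the members, against 40% and 22.8% of the tissue cells chosen by the same rule and 60.2% and 58.3% of those of organoids. The highest count in a member was 11 in both assembloid libraries, against 33 and 18 in tissue and 79 and 68 in organoids. Just outside the rule stood the 14298 and 3453 Lgr5 0 cells, which had no Lgr5 UMI by definition. Lgr5 lies on chromosome 10 from 115450311 to 115587780 on the minus strand (GRCm38, GENCODE M21 annotation), and its UMIs come from the 3′ end of the transcript.

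The main contrast asked what else differed between Lgr5+ cells and Lgr5 0 cells of the same library. Each Lgr5+ cell of assembloids and tissue was paired with a Lgr5 0 cell of nearly the same UMI total. In organoids, where Lgr5 0 cells were fewer, 502 of 847 and 516 of 1327 Lgr5+ cells were paired and the others left out of this contrast. UMIs were summed per library and class, and edgeR's quasi-likelihood test with Benjamini-Hochberg adjustment was run with library as a block on the 12 profiles of the 6 epithelial libraries, which share an estimate of the spread. In assembloids the Lgr5+ cells had higher levels of some genes of the crypt base and of ribosome biogenesis. Their levels of nearly all goblet cell genes tested and some colonocyte genes were lower. The lists of cell cycle, Notch and Wnt receptor genes gave no call in this main setting, but each gave calls with another scaling. Of 13637 genes tested, the 7 genes of the rule left out, 327 were higher (2.4% of those tested) and 556 lower (4.08%) at an adjusted p under 0.05, and 236 of these differed by at least 2-fold. Without organoid replicate 1 in the fit the count of 883 fell to 280, and without organoid replicate 2 to 367, while 262 genes passed in a fit of the assembloid profiles alone, 235 of them among the 883. With cells of at most 5% mitochondrial UMIs, 172 genes passed.

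The split between higher and lower calls depended on the scaling and the fit. It was 32 higher and 230 lower in the fit of the assembloid profiles alone and 116 and 489 by DESeq2. With library size in place of TMM normalization, an alternative added after the results had been seen, 853 genes were higher and 225 lower, and the median log2 difference of all genes moved from 0.01 to 0.16. Matched Lgr5+ cells held more genes than Lgr5 0 cells of the same depth, with medians of 2118 against 1944 in replicate 1 and 3875 against 3542 in replicate 2. Their mitochondrial share was 2.95% against 2.67% and 4.88% against 4.46%, and Malat1, a nuclear RNA, stood at 16200 against 18900 and 11700 against 13100 CPM. Of 92 ribosomal protein genes 28 were lower and 0 were higher. The part of these differences in the gene contrasts was not tested.

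Among the 21 genes of a list of crypt base and stem cell genes, Lgr5 itself not among them, 19 were tested, and 8 of these were higher and 0 lower, with a median log2 difference of 0.73 against 0.01 over all genes. The 2 that were too low to test were Olfm4, at 0 UMIs in the members of both libraries, and Msi1. In the alternatives run, between 1 and 12 of the list's genes passed as higher and 0 as lower, and the median stayed between 0.51 and 0.89. The lowest count, 1, came from the fit of the assembloid profiles alone, and 2 passed with at most 5% mitochondrial UMIs.

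Smoc2, a secreted calcium-binding matrix protein and a marker of colon stem cells, read 4.72 CPM in Lgr5+ and 1.24 CPM in matched Lgr5 0 cells of replicate 1, and 5.99 against 1.31 CPM in replicate 2. The classes did not overlap, and the log2 difference was 1.91 (SE 0.33, adjusted p = 0.0123 by edgeR's quasi-likelihood test), but Smoc2 was seen in few cells, 15 of 442 and 25 of 267 members against 5 and 7 Lgr5 0 cells. Sorbs2, an adaptor protein of the actin cytoskeleton, stood at 34.0 against 7.7 CPM and at 39.1 against 19.5 CPM (log2 difference 1.24, adjusted p = 0.0103).

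Lrig1, a membrane protein that restrains EGF receptors and marks intestinal stem cells, was read in far more cells. It stood at 81.8 against 38.0 CPM in replicate 1 and at 111 against 53 CPM in replicate 2, and 165 of 442 and 174 of 267 members held an Lrig1 UMI, against 101 and 115 Lgr5 0 cells. Its log2 difference was 0.93 (SE 0.09, adjusted p = 0.00135). Every Lgr5+ value of Smoc2, Sorbs2 and Lrig1 lay above both Lgr5 0 values.

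Rnf43 and Znrf3, the paired ubiquitin ligases that remove Wnt receptors from the cell surface and are the targets of the R-spondin and Lgr5 complex, were both higher. Rnf43 read 54.4 against 25.1 CPM and 58.0 against 30.9 CPM (log2 difference 0.85, SE 0.11, adjusted p = 0.00395). Znrf3 read 26.8 against 13.4 CPM and 28.3 against 12.6 CPM (0.94, SE 0.14, adjusted p = 0.00744), though a single cell of replicate 1 held 35 of its UMIs. The other 3 genes of the list that passed were Cdca7, a Myc-responsive nuclear factor, at a log2 difference of 0.90, Slc12a2, an ion cotransporter of secreting crypt cells, at 0.49, and Ephb2, a receptor that positions cells along the crypt, at 0.38.

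Several well known stem cell genes did not pass. Ascl2, the transcription factor that drives the stem cell state, was seen in 14 and 12 members, at 4.22 against 1.74 CPM and 2.62 against 1.69 CPM (log2 difference 0.79, adjusted p = 0.26). Axin2, a negative regulator induced by Wnt signalling, read 19.4 against 8.45 CPM and 13.7 against 8.99 CPM (0.73, adjusted p = 0.0629). Sox9, a transcription factor of crypt progenitors, had a log2 difference of 0.52 (adjusted p = 0.0532), Cd44, an adhesion receptor of crypt cells, of 0.20, and Prom1, a membrane glycoprotein, of -0.16. For the first of these the depth of a few UMIs allowed only a wide interval, with a standard error of 0.34 on the log2 scale.

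**Figure D2:**
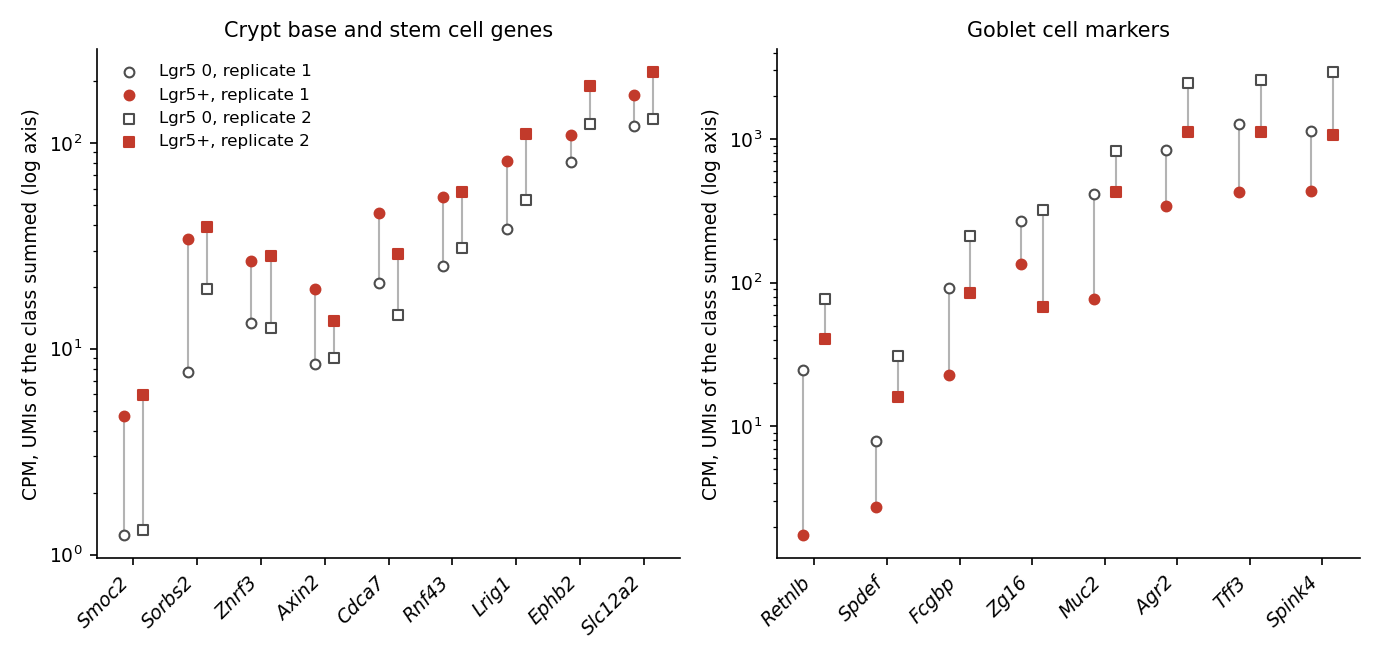
Levels in CPM (y axis, log scale) of 9 crypt base and stem cell genes (left) and 8 goblet cell markers (right) in Lgr5+ cells (filled red) and depth-matched Lgr5 0 cells (open) of assembloid replicate 1 (circles) and replicate 2 (squares), with a grey line joining the classes of a library. The Lgr5+ value lies above the Lgr5 0 value for each crypt base gene shown in both libraries, and below it for each goblet gene shown. The crypt base genes shown are the 8 that passed and Axin2. Of the 19 tested, 3 had a log2 difference below 0.

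The Wnt pathway was also read through a list of receptors and signal transducers and a list of targets. Of 12 receptor and pathway genes, 0 passed by edgeR and 0 by DESeq2, and 4 had an unadjusted p under 0.05. With library size scaling 2 of them were higher. Lgr4, the sister receptor for R-spondins, read 85.7 against 49.4 CPM and 103 against 71.8 CPM (log2 difference 0.49, adjusted p = 0.0593), and Ctnnb1, which encodes β-catenin, read 166 against 140 and 214 against 192 CPM (0.05, adjusted p = 0.776). Of 11 feedback and target genes tested 4 were higher and 0 lower, with a median of 0.51. Beyond Rnf43 and Znrf3 these were the G1 cyclins Ccnd1, at 81.3 against 46.7 and 90.4 against 65.0 CPM, and Ccnd2, at 239 against 174 and 310 against 197 CPM. Lef1, a transcription factor of the pathway that is itself a target, was at 0 UMIs in the members of both libraries.

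BMP signalling opposes Wnt at the crypt base. Of 13 genes of BMP receptors and responses 0 were higher and 3 lower in Lgr5+ cells. The ligand Bmp2 read 18.9 against 34.5 CPM and 27.3 against 42.7 CPM (log2 difference -0.90, adjusted p = 0.0132), and Id1, a direct target of BMP signals, 66.1 against 73.3 and 75.8 against 100 CPM (-0.44, adjusted p = 0.0318). The receptor Bmpr1a also passed, at -0.62. It was seen in more members, 170 of 442 and 196 of 267, than Lgr5 0 cells, 159 and 167. Its difference turned to 0.19 without cells holding any Mki67 or Top2a UMI. In that setting edgeR called 0 of 12 genes of the list, with 2 at an unadjusted p under 0.05, Bmp2 being at -0.85 and Id1 at -0.27. With library size scaling 1 gene of the list was lower and the list's median moved from -0.14 to 0.02. Of 10 Notch pathway genes 0 passed by edgeR and 0 by DESeq2, with 3 at an unadjusted p under 0.05. With library size scaling 1 of them was higher.

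Goblet cell genes gave the most one-sided list. Of 12 genes tested 11 were lower in Lgr5+ cells and 0 higher, with a median log2 difference of -1.45. Muc2, the gel-forming mucin of the colon, read 77.5 against 412 CPM in replicate 1 and 430 against 827 CPM in replicate 2 (log2 difference -1.71, SE 0.25, adjusted p = 0.00643). Spink4, a peptide of goblet cells, stood at 433 against 1130 and 1060 against 2910 CPM (-1.58, adjusted p = 2.55e-05), and Tff3, the trefoil factor of goblet cells, at 426 against 1270 and 1120 against 2590 CPM (-1.54, adjusted p = 0.000257). Within each library the Lgr5+ value was the lower one, while the levels of replicate 2 were above those of replicate 1 in both classes.

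Cell by cell, the medians of the classes lay close together and the upper tails apart. A Muc2 UMI was found in 26.5% of Lgr5+ and 29.6% of Lgr5 0 cells of replicate 1, and in 56.6% and 53.6% in replicate 2. Per cell, the goblet list made up a median of 6.29 against 6.71 UMIs per 10000 in replicate 1 and of 8.2 against 8.73 in replicate 2, whereas its 95th percentile was 84.7 against 136 and 215 against 518. The crypt base list differed in its median as well, at 6.88 against 5.58 and 11.2 against 6.88 UMIs per 10000. Between 5 and 11 goblet genes passed as lower in the alternatives, with 5 in the fit of the assembloid profiles alone, with Lgr5 read after thinning and without cells that held any Mki67 or Top2a UMI, and the list's median ranged from -2.07 to -0.71.

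Of 13 colonocyte genes 5 were lower and 0 higher, with a median of -0.76. Guca2a, which encodes guanylin, a hormone of surface colonocytes, read 28.6 against 57.2 and 76.6 against 134 CPM (log2 difference -1.03, adjusted p = 0.00162). Car1, a carbonic anhydrase of the colon surface, read 422 against 663 and 337 against 496 CPM (-0.76, adjusted p = 0.00395). Lypd8, a secreted barrier protein, Plac8 and Ceacam20 were the other members that passed. Krt20 could not be used here, since the rule bounds it.

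Markers of the rarer secretory cells gave few calls. Of 12 enteroendocrine genes 0 passed by edgeR and 0 by DESeq2, with 3 at an unadjusted p under 0.05 and a median of 0.93. With library size scaling 2 of them were higher. Chgb, a granin of hormone granules, read 131 against 88.5 and 182 against 76.1 CPM, but a single cell held 350 of its UMIs in replicate 1 and another 891 in replicate 2. Of 9 tuft cell genes tested 1 was higher and 1 lower. Trpm5, the cation channel of taste and tuft cells, was lower (log2 difference -6.62, adjusted p = 0.0123) with a UMI in 1 member against 4 Lgr5 0 cells of replicate 1 and in 0 against 2 cells of replicate 2. DESeq2 called 0 genes of this list, and 2 had an unadjusted p under 0.05.

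The cell cycle list, which excludes Mki67 and Top2a, gave no call in assembloids in the main setting. Of 16 genes 0 passed by edgeR and 0 by DESeq2, 7 had an unadjusted p under 0.05, and the median was 0.04. With library size scaling 3 were higher, and 3 were without barcodes that had 2 or more stromal or immune UMIs. Without cells holding any Mki67 or Top2a UMI 2 were higher, at a median of 0.34. Against all Lgr5 0 cells 2 were higher and 1 lower. Outside the list Hells, a gene of S phase, was called higher in the main setting, at 0.46. Pcna, the sliding clamp of DNA replication, read 81.5 against 68.6 and 71.1 against 66.1 CPM, and Hmgb2 1060 against 881 and 368 against 334 CPM. Ribosome biogenesis genes did pass in part, with 4 of 12 higher and 0 lower, led by the nucleolar proteins Nop56, at 75.8 against 33.8 and 56.0 against 30.7 CPM (log2 difference 0.86, adjusted p = 0.00403), and Gnl3, at 59.4 against 37.5 and 60.1 against 34.7 CPM (0.58, adjusted p = 0.0114). With at most 5% mitochondrial UMIs 0 genes of the list passed by edgeR, with 5 at an unadjusted p under 0.05 and a median of 0.38 against 0.37 with all cells.

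A list of genes that mark fetal-like and regenerating gut epithelium was lower in Lgr5+ cells, with 7 of 12 genes lower and 0 higher and a median of -0.45. Sprr1a, a cornified envelope precursor induced on injury, read 162 against 283 and 183 against 381 CPM (log2 difference -1.09, adjusted p = 0.00182). Ly6a, which encodes Sca-1, the surface marker of the regenerative state, read 732 against 803 and 909 against 1050 CPM (-0.32, adjusted p = 0.0415), and Anxa1, an annexin, 274 against 346 and 398 against 556 CPM (-0.57, adjusted p = 0.0151). The count of lower genes fell to 1 without cells holding any Mki67 or Top2a UMI, at a median of -0.46. It fell to 2 without barcodes that had 2 or more stromal or immune UMIs, at a median of -0.22. Of 9 YAP target genes 0 passed by edgeR and 0 by DESeq2, with 0 at an unadjusted p under 0.05.

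Hypoxia and glycolysis genes were lower for 6 of 17, with 0 higher and a median of -0.26, and with library size scaling for 2. Gapdh, a glycolytic enzyme, read 2870 against 3410 and 3360 against 4070 CPM (log2 difference -0.42, adjusted p = 0.00792). Of 12 epithelial identity genes 6 were lower and 0 higher, all of them keratins, claudins or Lgals4, an intestinal galectin, and the transcription factors Cdx1, Cdx2 and Hnf4a did not pass. Areg, the EGF family ligand amphiregulin, read 401 against 444 and 392 against 542 CPM (-0.46, adjusted p = 0.0129), and Errfi1, a feedback inhibitor of EGF receptors, was the other of 10 EGF family genes that was lower. Without cells holding any Mki67 or Top2a UMI edgeR called 0 of these 10, with 2 at an unadjusted p under 0.05, and Errfi1 turned from -0.48 to 0.32. None of 10 p53 target genes or 8 interferon-stimulated genes passed by edgeR or DESeq2, with 4 and 1 at an unadjusted p under 0.05. Without cells holding any Mki67 or Top2a UMI edgeR called 1 p53 target higher and 1 lower.

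Apart from the lists, the 10 called genes with the largest higher differences, at an average log2 CPM of at least 5 over the 12 profiles of all settings, included Htr4, a serotonin receptor, at 7.46 against 1.49 and 17.0 against 5.43 CPM (log2 difference 1.64, adjusted p = 0.00395), Sorcs2, a sorting receptor, at 11.9 against 3.73 and 16.7 against 4.87 CPM (1.58, adjusted p = 0.00328), and Tiam1, an activator of Rac, at 22.9 against 8.2 and 18.3 against 7.31 CPM (1.25, adjusted p = 0.00395). All 3 were lower in assembloids than that average and passed its limit through the tissue and organoid profiles, where their Lgr5+ cells stood between 51.1 and 621 CPM. Cpm, Cadps2, Bicd1, Kank1 and the long non-coding RNA Pvt1 were also among them, at log2 differences between 1.19 and 1.51, although that of Cpm turned to -0.43 when Lgr5 was read after thinning. A single cell held 55 Cadps2 UMIs in replicate 1 and another 291 in replicate 2, and a Cadps2 UMI was found in 9.05% against 7.47% and 31.1% against 27.7% of cells. Of the 10 lowest above the same level, 6 were goblet markers of the list, and the others were Sval1, Ramp1, Phactr2 and Amdhd2, with Sval1 at 6.96 against 25.1 and 21.2 against 84.9 CPM (-2.12, adjusted p = 0.000158). The difference of Phactr2 turned from -1.19 to 0.13 with Lgr5 read after thinning and to 0.40 with at least 2 Lgr5 UMIs.

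**Figure D3:**
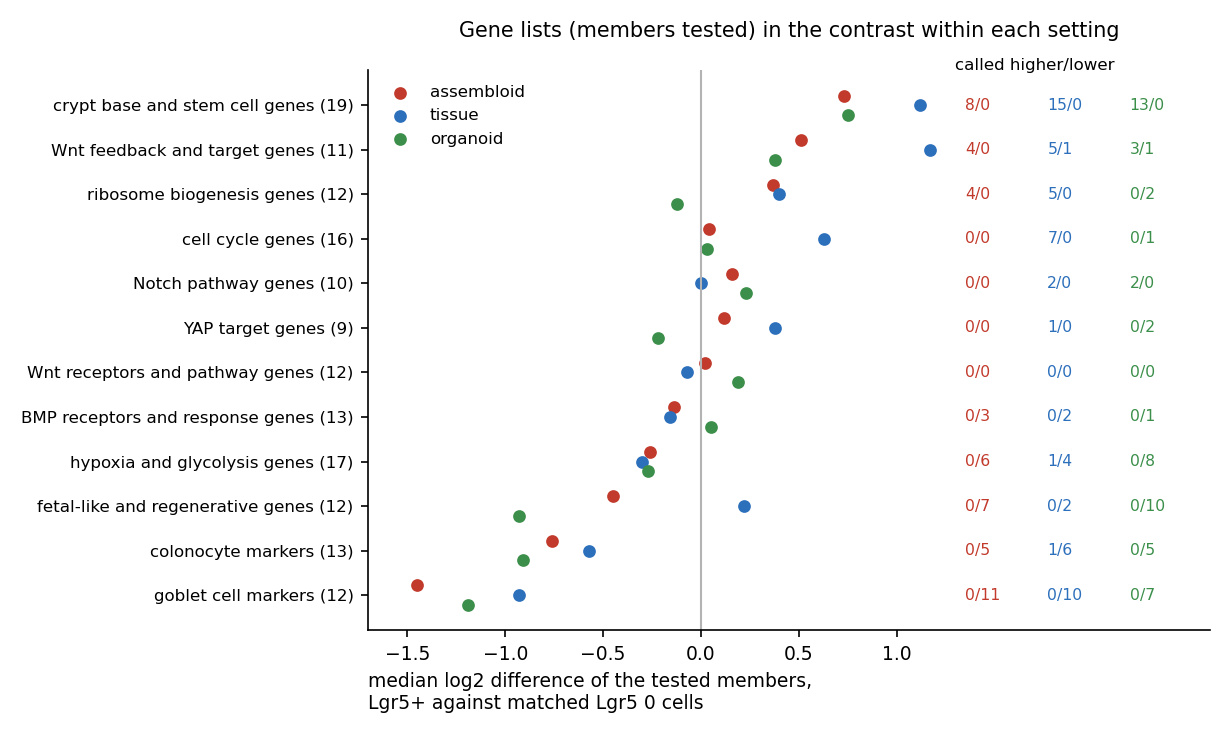
Median log2 difference of the tested genes of 12 lists (x axis) between Lgr5+ and depth-matched Lgr5 0 cells of assembloids (red), tissue (blue) and organoids (green), with the number of tested genes in parentheses and the genes called higher and lower at the right. Crypt base genes lie to the right in all 3 settings, at 0.73, 1.12 and 0.75, and goblet genes to the left, at -1.45, -0.93 and -1.19, while cell cycle genes lie at 0.04, 0.63 and 0.03.

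Stromal and immune RNA was present in both classes of assembloid cells. Of 9 stromal and 11 immune markers that could be tested 0 passed by edgeR and 0 by DESeq2 in this contrast, with 0 and 2 at an unadjusted p under 0.05, while 5 of 7 immune markers tested were lower in Lgr5+ cells without cells holding any Mki67 or Top2a UMI and 2 of 9 with at most 5% mitochondrial UMIs. The part of this RNA in the other differences was not tested. The summed stromal list stood at 137 and 37.1 CPM in the matched Lgr5 0 cells and between 30.0 and 158 CPM in Lgr5+ cells split by Lgr5 count, and the immune list at 225 and 296 CPM against 31.3 to 816 CPM. Dcn, a fibroblast proteoglycan, was seen in 74 of 442 and 32 of 267 members, against 73 and 28 Lgr5 0 cells. Removing every barcode with 2 or more UMIs over both lists left 271 and 167 members, and the contrast then called 532 genes, with 6 crypt base genes higher and 10 goblet genes lower.

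The level of the crypt base list climbed in order with the number of Lgr5 UMIs in a cell, and that of the colonocyte list fell in order. The cell cycle and fetal-like lists showed no steady order in either assembloid library. The crypt base list summed to 640 CPM in matched Lgr5 0 cells of replicate 1, 771 CPM in cells with 1 Lgr5 UMI, 1120 CPM with 2 and 1990 CPM with 3 or more. In replicate 2 it went from 742 through 1060 and 1100 to 1490 CPM. The goblet list fell from 4180 to 898 CPM in replicate 1 and from 9620 to 668 CPM in replicate 2 between the first and the last class, with 1500 and 2290 CPM between in replicate 1 and 5040 and 3730 CPM in replicate 2. The immune list stood at 722 and 780 CPM in the last class against 225 and 296 CPM in the first, and its part in these levels was not tested. The last class rested on 23 and 39 cells, which were also deeper, with medians of 9531 and 22190 UMIs.

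**Figure D4:**
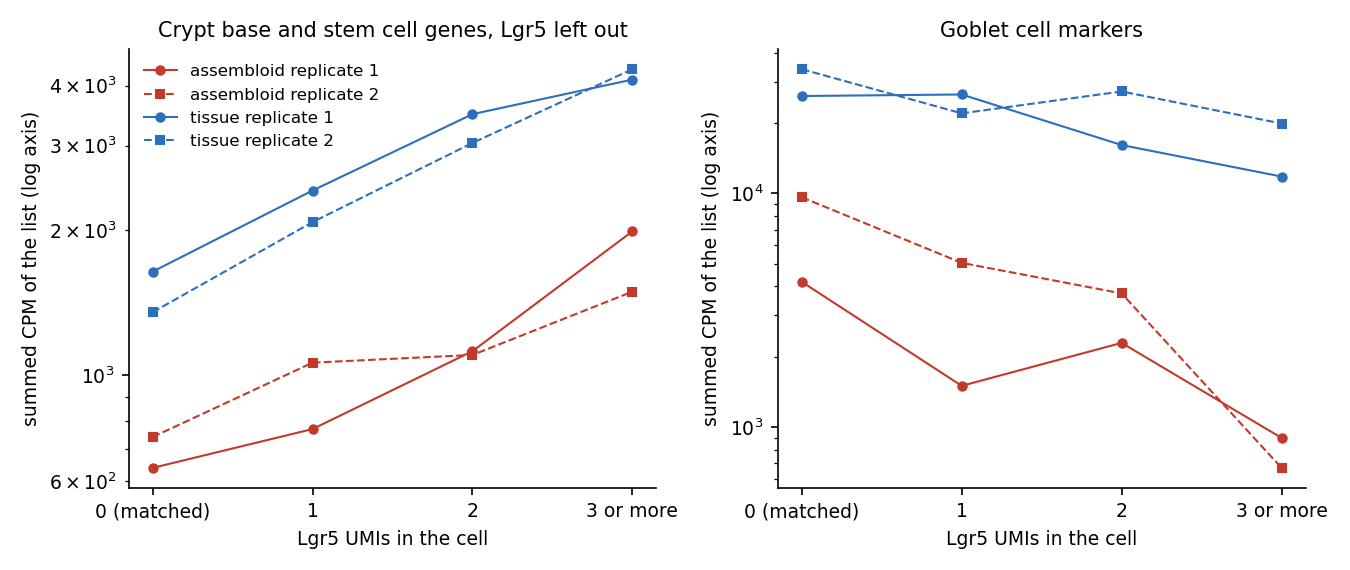
Summed CPM (y axis, log scale) of the crypt base and stem cell list, Lgr5 left out (left), and of the goblet list (right) against the Lgr5 UMIs of the cell (x axis), in assembloids (red) and tissue (blue), for replicate 1 (circles, solid lines) and replicate 2 (squares, dashed lines). The crypt base list climbs in all 4 libraries and stays lower in assembloids, where cells with 3 or more Lgr5 UMIs reach 1990 and 1490 CPM against 4120 and 4330 CPM in tissue.

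The same contrast was run in tissue and organoids and its size compared with that in assembloids. In tissue 419 genes were higher (3.07% of those tested) and 562 lower (4.12%), and 15 of the 19 crypt base genes were higher and 0 lower, with a median of 1.12. In organoids 391 genes were higher (2.87%) and 782 lower (5.73%), and 13 crypt base genes were higher. The test of the difference between the assembloid and the tissue contrast called 29 genes, 7 with a higher value in assembloids (0.0513%) and 22 with a lower one (0.161%), while 1615 genes had an unadjusted p under 0.05.

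Cd44 was the only one of the 19 crypt base genes that edgeR called in this test, where 10 had an unadjusted p under 0.05. DESeq2 called 3, and edgeR with library size scaling 0, with 8 at an unadjusted p under 0.05. Its log2 difference was 1.70 in tissue and 0.20 in assembloids, which differed by -1.50 (SE 0.24, adjusted p = 0.0457). Of the 16 cell cycle genes 1 passed in this test by edgeR, Stmn1, with 9 at an unadjusted p under 0.05, and 0 passed with library size scaling, with 8 at an unadjusted p under 0.05. Outside that list Mcm7, a subunit of the replicative helicase, stood at 1.92 in tissue against 0.20 (difference -1.71, adjusted p = 0.0314), and Hells, a chromatin remodeller of S phase, at 1.90 against 0.46 (-1.45, adjusted p = 0.0391). Spink4 and Agr2 were lower in Lgr5+ cells of assembloids, at -1.58 and -1.36, with differences of -1.76 and -1.13 from tissue, where they read 0.18 and -0.23. In the other direction stood Spink1, a trypsin inhibitor, at -2.04 in tissue and -0.02 in assembloids (difference 2.03, adjusted p = 0.00476). The calls depended on single libraries, since leaving out tissue replicate 1 or tissue replicate 2 left 1 gene, leaving out an organoid library left 5 or 4, and leaving out assembloid replicate 1 or 2 gave 340 and 307.

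The Lgr5+ cells of assembloids were next set against those of tissue, with all cells chosen by the rule summed per library and the 6 profiles tested by edgeR's quasi-likelihood test. The rule takes cells with more Lgr5 UMIs from tissue, as given above, so the groups differ in the measure that chose them. The assembloid cells had less of most crypt base, Notch, goblet and deep crypt secretory genes and more of hypoxia, glycolysis and fetal-like genes. In the depth-matched Lgr5 0 cells the crypt base list also stood lower, at 640 and 742 CPM in assembloids against 1640 and 1350 CPM in tissue. The fetal-like list stood higher in them, at 2320 and 3070 against 513 and 574 CPM. For these lists the direction was thus not particular to Lgr5+ cells. Of 12871 genes 2182 were higher in the Lgr5+ cells of assembloids (17.0%) and 1973 lower (15.3%). With library size scaling the split was 1299 against 3283, and the median log2 difference of all genes moved from 0.02 to -0.42. Of 92 ribosomal protein genes 72 were higher and 2 lower, with a median of 1.17. The Lgr5+ cells had median mitochondrial shares of 2.95% and 4.88% in assembloids against 7.43% and 7.73% in tissue. With at most 5% mitochondrial UMIs only 33 and 24 tissue cells remained. The part of these differences in the gene calls was not tested. The count of 4155 fell to 1490 without tissue replicate 1, to 2050 without tissue replicate 2, and to 907 when every cell was thinned to 2000 UMIs before Lgr5 was read and UMIs were summed.

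Of the 19 crypt base genes tested 13 were lower in assembloids and 1 higher, with a median of -1.32. Smoc2 stood at 4.72 and 5.99 CPM in assembloids against 125 and 121 CPM in tissue, a ratio of summed UMIs of 22.7-fold lower (95% counting interval 17.0 to 30.9). Sorbs2 was 11.3-fold lower, at 34.0 and 39.1 against 446 and 365 CPM, and Lrig1 4.16-fold lower, at 81.8 and 111 against 409 and 413 CPM. Rnf43, Znrf3, Sox9, Axin2, Ascl2, Rgmb, Slc12a2, Kcnq1, Nav2 and Ephb3 were the others that were lower, with log2 differences between -3.94 and -1.11. Prom1, the membrane glycoprotein prominin, was higher, at 167 and 217 against 56.1 and 74.1 CPM, and Ephb2, Cd44, Cdca7, Mex3a and Tnfrsf19 did not pass. The assembloid values lay below both tissue values for each of the 13.

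Notch and secretory genes followed the same direction. Of 10 Notch pathway genes 6 were lower and 0 higher, among them the receptor Notch1, at 6.46 and 8.80 against 48.3 and 35.2 CPM, and Atoh1, the transcription factor that commits cells to the secretory fate, at 0.497 and 4.49 against 42.9 and 59.0 CPM. All 6 markers of deep crypt secretory cells, which lie between the stem cells of the colon, were lower, with Reg4 at 4.72 and 84.4 against 1180 and 1960 CPM, although a single cell of assembloid replicate 2 held 257 of its UMIs, and Kit at 1.24 and 0.936 against 66.1 and 65.4 CPM. Of 12 goblet genes 9 were lower and 0 higher, with Muc2 at 77.5 and 430 against 3870 and 5110 CPM. In the Lgr5 0 cells of tissue the goblet list also stood high, at 26100 and 34000 CPM.

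All 17 hypoxia and glycolysis genes were higher in assembloids, and 16 of them with library size scaling. Bnip3, a mitophagy receptor induced by HIF, stood at 278 and 243 against 1.65 and 3.60 CPM, 109-fold higher (57.5 to 240). Adm, which encodes adrenomedullin, was 97.9-fold higher (38.1 to 360), at 122 and 88.6 against 1.24 and 0.719 CPM. Eno1, a glycolytic enzyme, read 790 and 996 against 89.2 and 90.6 CPM, and Ero1l, an oxidase of the endoplasmic reticulum, 607 and 743 against 27.7 and 33.8 CPM. No assembloid value overlapped a tissue value for these 4 genes. The list's median log2 difference was 2.85. Bnip3 was seen in 69.5% and 82.4% of assembloid Lgr5+ cells and in 70.8% and 82.0% of matched cells without an Lgr5 UMI. For Adm these shares were 49.8% and 56.6% against 50.5% and 61.0%. Within assembloids 6 of the 17 genes passed as lower in Lgr5+ cells and none as higher. The reading of Bnip3 and Adm in assembloids was thus not particular to Lgr5+ cells.

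Fetal-like genes were higher for 10 of 12 and lower for 0, with Ly6a at 732 and 909 against 35.5 and 58.2 CPM (log2 difference 4.59, adjusted p = 5.09e-06) and Sprr1a at 162 and 183 CPM against 0 and 0.719 CPM, from 1631 UMIs against 1. Of 16 cell cycle genes 8 were higher and 0 lower, which became 7 and 3 with library size scaling. The p53 target Cdkn1a, an inhibitor of the cell cycle, stood at 230 and 227 against 32.2 and 58.2 CPM, and 7 of 10 p53 targets were higher and 2 lower. Trp53cor1, a long non-coding RNA induced by p53, had 1949 UMIs in assembloid members and none in tissue, at least 265-fold higher by a floor of 3 UMIs over the group. Immediate early and heat shock genes were lower for 8 of 12 and higher for 0, with Fosb at 31.1 and 64.6 against 371 and 489 CPM.

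The genes named next were called, had an average log2 CPM of at least 5 and did not overlap between the groups, gene models left out. Among such genes Mptx1, a pentraxin of the gut mucosa, gave the lowest value, with 1 UMI in assembloid members against 47771 in tissue. Its tissue levels were 10500 and 16000 CPM. Fut9, a fucosyltransferase, had 3 UMIs against 1549, and Ror1, a receptor for Wnt5a, 1 against 502. By summed UMIs Sycn was 301-fold lower and Gsdmc4, on 4 UMIs in assembloids, 460-fold lower, and Ccn3, Slc5a8, Esrrg and Nxpe2 lay between 137-fold and 108-fold. With so few UMIs in assembloids, Mptx1, Fut9, Ror1 and Gsdmc4 reached the limit on the average only through the other profiles. The size of their differences rests on those few UMIs, and the counting interval of Gsdmc4 ran from 179-fold to 1690-fold. Insl5, a hormone of enteroendocrine cells, was 149-fold lower but uneven in tissue, at 343 and 99.9 CPM, and the enteroendocrine list in tissue replicate 1 was uneven too, at 7060 CPM in the 35 cells with 2 Lgr5 UMIs against 38.5 and 46.5 CPM in those with 1 and with 3 or more. On the higher side Slc25a48, Slpi, Cx3cr1 and Ly6c1 stood between 49.0-fold and 85.4-fold, on 13, 7, 30 and 12 UMIs in tissue. Slpi, a secreted protease inhibitor, was uneven between the assembloid libraries, at 31.3 and 251 CPM.

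Markers of other cell types moved with this comparison. Of 9 immune markers tested 7 were higher in assembloids, and of 7 stromal markers 6 were higher and 1 lower. Lyz2, the lysozyme of macrophages, had 868 UMIs in assembloid members and none in tissue, at least 118-fold higher by the same floor. Single cells held 70 and 201 of these UMIs in assembloid replicates 1 and 2. Col3a1, Dcn, C1qa and C1qb were likewise at 0 in tissue, with 205, 176, 239 and 219 UMIs in assembloids. The stromal list summed to between 3.73 and 19.1 CPM in the Lgr5+ cells of tissue and to between 30.0 and 158 CPM in those of assembloids, and the immune list to 2.65 to 23.7 against 31.3 to 816 CPM. Without barcodes holding 2 or more such UMIs, 3590 genes were called, the hypoxia list again gave 17 higher and 0 lower, and the crypt base list 1 higher and 13 lower.

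**Figure D5:**
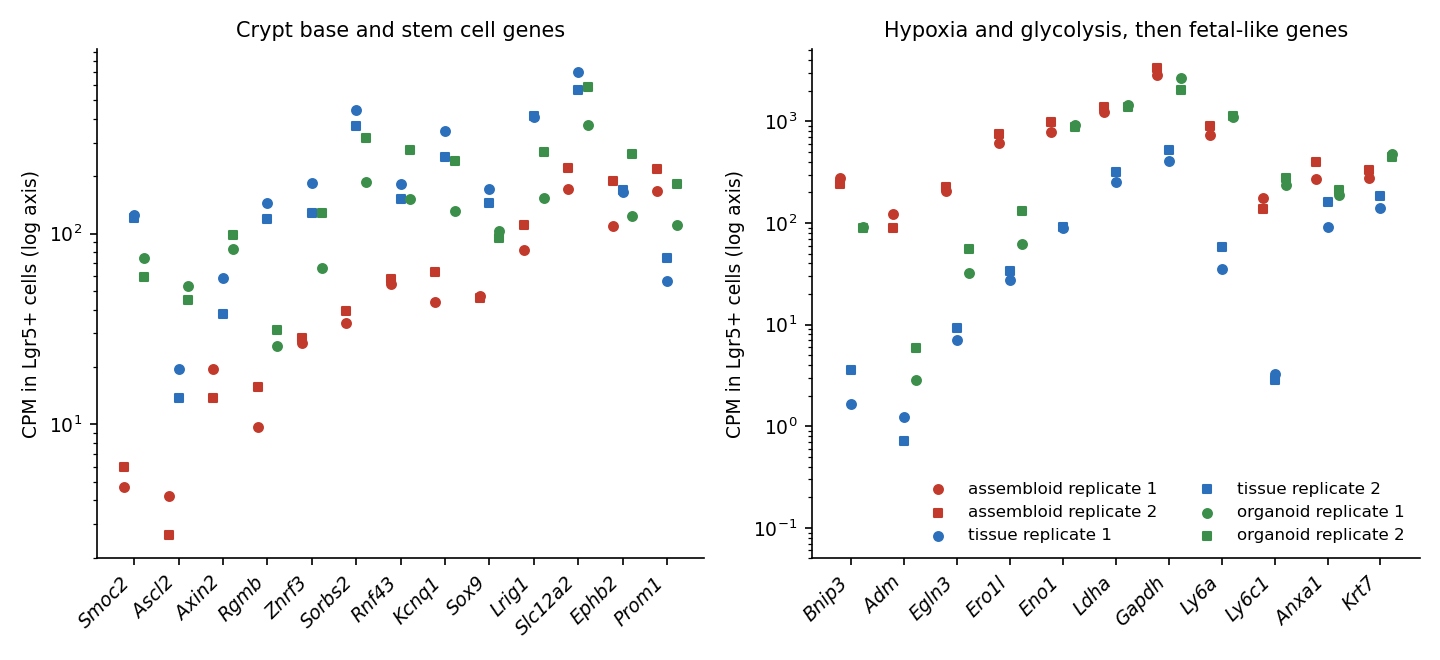
Levels in CPM (y axis, log scale) in the Lgr5+ cells of each library of assembloids (red), tissue (blue) and organoids (green), replicate 1 as circles and replicate 2 as squares, for 13 crypt base and stem cell genes (left) and 11 hypoxia, glycolysis and fetal-like genes (right). Smoc2 lies at 4.72 and 5.99 CPM in assembloids against 125 and 121 in tissue and 74.4 and 59.5 in organoids, and Bnip3 at 278 and 243 against 1.65 and 3.60 in tissue and 91.2 and 89.1 in organoids.

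Against organoids, whose medium held the Wnt agonists and noggin that assembloids lacked, the Lgr5+ cells of assembloids had less of most crypt base and Wnt target genes and of some cell cycle and ribosome biogenesis genes, and more of most goblet and colonocyte genes. Of 12871 genes 1863 were higher (14.5%) and 1307 lower (10.2%), and with library size scaling 1448 and 1912, the median of all genes moving from -0.07 to -0.27. Without organoid replicate 1 the count of 3170 fell to 1117, with at least 2 Lgr5 UMIs required to 1590, and with cells thinned to 2000 UMIs to 709. The assembloid profiles are those of the preceding comparison, so the comparisons are not independent. The rule also takes cells with more Lgr5 UMIs from organoids. Among matched Lgr5 0 cells the crypt base list was lower too, at 640 and 742 against 1110 and 1800 CPM in organoids. So was the cell cycle list, at 1780 and 1020 against 2960 and 2480 CPM. The goblet list was higher, at 4180 and 9620 against 1570 and 1330 CPM. The colonocyte list was too, at 2880 and 2820 against 1260 and 893 CPM. For these lists the direction was thus not particular to Lgr5+ cells.

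Of 19 crypt base genes 15 were lower and 0 higher, with a median of -1.57, and of 11 Wnt feedback and target genes 8 were lower and 0 higher. Axin2 stood at 19.4 and 13.7 CPM in assembloids against 83.2 and 98.2 CPM in organoids (log2 difference -2.25, adjusted p = 0.000233), Ascl2 at 4.22 and 2.62 against 53.2 and 44.6 CPM (-3.67, adjusted p = 2.69e-05), and Smoc2 at 4.72 and 5.99 against 74.4 and 59.5 CPM (-3.46, adjusted p = 1.63e-05). Ccnd1 read 81.3 and 90.4 against 280 and 338 CPM. Lef1, at 0 in assembloids, read 2.19 and 6.86 CPM. Of 16 cell cycle genes 8 were lower and 0 higher, and of 12 ribosome biogenesis genes 5 were lower and 0 higher.

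Differentiation genes went the other way. Of 12 goblet genes 11 were higher in assembloids and 0 lower, with Muc2 at 77.5 and 430 against 4.99 and 32.2 CPM. Zg16, a lectin of goblet granules, stood at 134 and 67.8 against 0.215 and 0.680 CPM. It was 226-fold higher by summed UMIs (142 to 384), an interval that covers counting error only. Single cells held 126 and 103 of its 901 UMIs in assembloid replicates 1 and 2, and 74 of 442 and 92 of 267 members had any. A single cell of replicate 2 held 389 Muc2 UMIs. Of 13 colonocyte genes 11 were higher and 1 lower. Chgb passed at a log2 difference of 6.09, but single cells of assembloid replicates 1 and 2 held 350 and 891 of its 1500 UMIs. EGF family genes were higher for 6 of 9 and lower for 0, with Areg at 401 and 392 against 53.6 and 80.3 CPM and the receptor Erbb3 at 867 and 501 against 39.6 and 60.9 CPM.

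Hypoxia and glycolysis genes were higher for 9 of 17 and lower for 0 against organoids, with Bnip3 at 278 and 243 against 91.2 and 89.1 CPM, while Ldha, lactate dehydrogenase, read 1230 and 1400 against 1440 and 1380 CPM and did not pass. Fetal-like genes were higher for 3 and lower for 3, with Sprr1a at 162 and 183 against 3.74 and 8.43 CPM and Ly6a, at 732 and 909 against 1110 and 1130 CPM, not passing. Immediate early and heat shock genes were higher for 11 of 12 and lower for 0, led by Hspa1a, a heat shock chaperone, at 128 and 215 against 2.66 and 3.82 CPM, 55.8-fold higher by summed UMIs (46.8 to 67.0). Of 9 immune markers tested 8 were higher and of 7 stromal markers 5. Lyz2 had 868 UMIs in assembloids, 70 and 201 of them in single cells of replicates 1 and 2, against 1 in organoids. The stromal list summed to between 24.7 and 54.4 CPM in the Lgr5+ cells of organoids and the immune list to between 3.23 and 11.7 CPM, Dcn and C1qa being at 0 in the organoid cells, and the part of this RNA in the other differences was not tested. Without barcodes holding 2 or more stromal or immune UMIs, 2561 genes were called, with 14 crypt base genes lower and 11 goblet genes higher.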

How the data were processed

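The deposited files hold raw UMI counts per gene and barcode of filtered matrices, one per library, which the authors made with Cell Ranger (version 7.1.0 per the file headers, build mm10 per the submitters' processing notes) and did not normalize. Total UMIs per epithelial library ranged from 99133978 to 191255856. Of 32285 gene IDs 32235 were found in the GENCODE M21 annotation of GRCm38. The 2 stromal libraries were used only to count barcodes. No doublet caller was run; the rule's collagen bound and 2 alternatives (deepest 6% removed, barcodes with 2 or more stromal or immune UMIs removed) stood in its place.

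Cells were chosen as the report states. UMIs were summed per library and class and tested with edgeR 4.0.16 (R 4.3.3; filterByExpr, TMM, glmQLFit, glmQLFTest), adjusted over all genes; DESeq2 1.42.0 was an alternative. Greedy matching paired each cell of the smaller class (Lgr5+ in assembloids and tissue, Lgr5 0 in organoids) with the cell of the other class of nearest UMI total in its library, deepest first. Log2 differences come from these fits, CPM from summed counts, shares carry exact Clopper-Pearson intervals (95%), and a gene at 0 was bounded by a floor of 3 counts. Thinning drew UMIs at random from a fixed seed.

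On simulated counts with 4-fold changes in 200 genes, the within-library test found 190 with 4 false calls and the test between groups 181 with 5. The simulation used 1 fixed spread and changed no genes of low count. The genes called in the data had a median log2 difference in size of 0.6 within assembloids and 1.79 against tissue. The simulated counts thus do not give the recovery or false calls for changes as small as those. Genes to name were, of each list, up to 5 with the highest CPM and all that passed, and per contrast the 10 called genes of largest change each way whose average log2 CPM reached 5, with both libraries alike in sign (within libraries) or groups not overlapping (between groups), gene models and ribosomal, mitochondrial and immunoglobulin genes left out. Members and lists were chosen with earlier results of these data known. The 22 gene lists were written by hand. Alternatives covered depth matching, Lgr5 threshold, filters, scaling, tool and each library left out. Results for some genes that the naming rule took are not reported here.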

Additional observations from a re-analysis of the deposited data

Results flagged for a closer look

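A test of the difference itself set 29 genes apart between the assembloid and the tissue contrast of Lgr5+ with Lgr5 0 cells, by edgeR's quasi-likelihood test with Benjamini-Hochberg adjustment over 13637 genes, and the 21 of them that the naming rule or the gene lists took are given here. Values are the assembloid log2 difference minus that of tissue. Higher in assembloids were Spink1, 2.03, Mgat4c, 1.39, Cadps2, 1.26, Maml3, 1.18, Car2, 0.99, Ccnd2, 0.80, and Wfdc2, 0.73. For Cadps2 and Maml3 the assembloid difference was the larger one, at 1.37 and 1.09 against 0.10 and -0.08 in tissue, though single cells held 55 and 291 of the Cadps2 UMIs in assembloid replicates 1 and 2. Ccnd2 was higher in Lgr5+ cells of assembloids, at 0.41, and lower in those of tissue, at -0.39.

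Lower in assembloids were Krt7, -0.83, Stmn1, -0.96, Agr2, -1.13, Hells, -1.45, Cd44, -1.50, Pard6b, -1.52, F3, -1.63, Sval1, -1.68, Edn1, -1.68, Mcm7, -1.71, Spink4, -1.76, Clca3b, -1.76, Marcksl1, -2.17, and Clca4a, -3.74. F3, which encodes tissue factor, was lower in Lgr5+ cells of assembloids, at -0.62, and higher in those of tissue, at 1.00. Pard6b, a polarity protein, had -0.52 and 1.00. Cadps2 turned to -0.08 when at least 2 Lgr5 UMIs were required. None of the 21 was called when Lgr5 was read after thinning to 2000 UMIs or without a library term.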

How the results depend on the processing

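The 883 genes called within assembloids became 1564 against all Lgr5 0 cells, 382 with at least 2 Lgr5 UMIs, 253 with Lgr5 read after thinning, 266 without cells holding any Mki67 or Top2a UMI, 262 in a fit of the assembloid profiles alone, 172 with at most 5% mitochondrial UMIs and 532 without barcodes holding stromal or immune UMIs, and ranged from 280 to 1132 with a library left out. The 29 genes of the difference between assembloids and tissue became 711 against all Lgr5 0 cells, 16 without Mki67 or Top2a UMIs, 1 with at most 5% mitochondrial UMIs, 19 without barcodes holding stromal or immune UMIs, 54 with no filter on low counts, 112 by DESeq2, 19 without the deepest 6% of cells and 19 with library size scaling (added after the data had been seen), and ranged from 1 to 340 with a library left out. With Lgr5 read after thinning edgeR called 0, with 1074 genes at an unadjusted p under 0.05. With cells thinned to 2000 UMIs the 4155 genes against tissue became 907 and the 3170 against organoids 709, the latter 1590 with at least 2 Lgr5 UMIs, and with a library left out they ranged from 1490 to 4027 and from 1117 to 2695. The share of cells with Lgr5, 1.4%, was 5.09% without thinning and 2.55% at 5000 UMIs, and 1.11% to 1.69% in single libraries. The cause was not tested, except that fewer cells or libraries enter several of these fits. Barcodes holding stromal or immune UMIs are here those with 2 or more of them.

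Same-numbered libraries did not deviate together (correlations 0.019, -0.007 and -0.095 over 12877 genes). With 2 libraries per group this check could not exclude that the numbers pair the samples. With a replicate block 4009 genes were called against tissue, 3937 of them among the 4155, and 2980 against organoids. With no replicate block, a group term replacing the library, edgeR called 0 genes for the difference between the contrasts, with 477 at an unadjusted p under 0.05. By DESeq2 with the block 112 were called.

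Of 69 genes named within assembloids 65 never changed direction in these alternatives, and 897 of 1234 values of the 69 stayed past the threshold. The exceptions were Bmpr1a, 0.12 with Lgr5 read after thinning and 0.19 without Mki67 or Top2a UMIs, Cpm, -0.43, and Phactr2, 0.13, both with Lgr5 read after thinning, Phactr2, 0.40, with at least 2 Lgr5 UMIs, and Errfi1, 0.32, without Mki67 or Top2a UMIs. The difference of Cadps2 became -0.08 with at least 2 Lgr5 UMIs. Between groups Cdx2 became -0.39 against tissue and Egr1 -0.06 against organoids with thinned cells, and Smad6 0.86 against tissue with at most 5% mitochondrial UMIs.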
